A study of Mus musculus with 12 samples.

Results

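The genes of fatty acid oxidation and ketone body metabolism were followed as a set of 36 symbols out of the 24054 counted in 12 mouse colon libraries. The set was chosen by name with earlier results of these data known. All 36 passed the filter on low counts, which left 14860 genes to test. The libraries fell into 3 groups of 4. N was normal colon, labelled wild type, and the series' design text calls it tissue next to the tumours. BT-T was tumour of the genotype BrafV600E;Tgfbr2-/-, labelled with an activated kinase allele and the loss of a TGF-beta receptor gene. BTPRZ-T was tumour that also carried Rnf43-/-, Znrf3-/- and p16 Ink4a-/-, the first 2 being ubiquitin ligases that remove WNT receptors and the last a cell cycle inhibitor encoded by Cdkn2a. Every library has the strain label NSG, an immunodeficient mouse that lacks mature lymphocytes but keeps its stromal and myeloid cells. The tumours were engrafted, ages and treatments are not labelled, and no source tells if each library is a different animal, tumour or clone. The p-values therefore measure the spread between these samples, which may be technical.

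Long-chain fatty acids enter mitochondria as carnitine esters. Fatty acids are shortened there in a repeating spiral of dehydrogenation, hydration, a further dehydrogenation and thiolysis. The spiral releases acetyl-CoA and passes electrons to the respiratory chain. Peroxisomes run a related spiral on very long and branched chains. Ketone bodies are made from acetyl-CoA and converted back to it in the tissues that burn them. Colonocytes of the surface epithelium are known for oxidising butyrate, a short-chain fatty acid from gut bacteria, as a main fuel.

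Gene reads came to 15732004 to 26052772 per library. N replicate 2 stood apart from N replicates 1, 3 and 4. Of its gene reads, 10.96% fell in ribosomal protein genes, against 1.59 to 1.94% in the other 3, and it held reads of 14175 genes against 16152 to 16432. The share ran from 1.86 to 2.73% among BT-T libraries and from 3.64 to 9.09% among BTPRZ-T libraries. BTPRZ-T replicates 4 and 1 held reads of 13450 and 14697 genes, against 16131 and 16438 in the other BTPRZ-T libraries. The main results are therefore given both with all 12 libraries and without N replicate 2. Ddx3y, a Y-linked transcript, was at 0.110 CPM or less in N replicate 4, BT-T replicate 1 and BTPRZ-T replicates 1, 3 and 4, and at 12.7 to 47.6 CPM elsewhere. Xist, transcribed from an inactive X chromosome, was at 95.8 to 730 CPM in BT-T replicates 2, 3 and 4 and BTPRZ-T replicate 2, so these 4 libraries held both transcripts, and the sex of the animals was not read from them. Of the edited genes, counted over whole genes so that no edit can be seen, Cdkn2a stood at 0.281 ± 0.0523 CPM in N, 10.9 ± 3.47 CPM in BT-T and 23.9 ± 5.78 CPM in BTPRZ-T (SD, n = 4). Rnf43 stood at 43.1 ± 23.1, 66.5 ± 13.97 and 146 ± 47.7 CPM, Tgfbr2 at 194 ± 90.2, 417 ± 87.7 and 199.6 ± 51.2 CPM, and Braf at 53.5 ± 27.5, 53.4 ± 6.11 and 31.5 ± 18.5 CPM. Levels of Znrf3 were 23.9 ± 15.8, 25.6 ± 4.58 and 28.4 ± 8.58 CPM in the same order.

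Part of the set fell in both kinds of tumour relative to normal colon. It included Cpt2 and Slc25a20 of the carnitine shuttle, the dehydrogenases Acads, Acadvl and Hadh, Bdh1 of ketone body metabolism and the regulator Ppara. In BT-T against N, 9 of the 36 genes fell and 0 rose at an adjusted p under 0.05: Bdh1, Acads, Acadvl, Hadh, Acaa2, Etfb, Cpt2, Slc25a20 and Ppara. Of all tested genes, 2.90% fell and 5.67% rose in that comparison, 8.57% in all. At an unadjusted p under 0.05, 23 members were lower and 1, Acox2, was higher, against 12.6% and 11.5% of all tested genes. DESeq2 called 19 lower and 1 higher, against 7.26% and 9.44% of the genes to which it gave an adjusted p. In BTPRZ-T against N, 13 members fell and 1 rose, against 6.18% and 5.66% of all tested genes. The 13 were Bdh1, Acads, Acadvl, Hadh, Hadha, Hadhb, Acaa2, Etfdh, Cpt2, Slc25a20, Ehhadh, Ppara and Pdk4, and the gene that rose was Acsl5. Both comparisons share the N libraries. Adjusted p-values are from edgeR's quasi-likelihood test with Benjamini-Hochberg adjustment over all tested genes, and the ± beside log2 fold changes gives the standard error. CPM is a gene's reads scaled to a common library size with the TMM factors.

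The median log2 fold change of the 36 genes was -0.80 in BT-T against N and -0.98 in BTPRZ-T against N, where all tested genes had medians of -0.10 in both. Of the 36 genes, 30 had a negative fold change in each. The libraries of 20 members did not overlap, all 4 BT-T libraries being lower, and 1 member was higher without overlap, against 9.02% and 13.4% of all tested genes. For BTPRZ-T these counts were 15 lower and 1 higher, against 7.64% and 6.88% of all tested genes. Without N replicate 2, 13 members fell in BT-T and 16 fell in BTPRZ-T, where 5.70% and 15.7% of all tested genes fell. Without that library 0 members rose in BT-T (2 at an unadjusted p under 0.05, as were 13.6% of all tested genes; DESeq2 was not run without it) and 2 rose in BTPRZ-T, against 7.79% and 16.6% of all tested genes, and the medians were -0.60 and -0.61 against -0.03 and 0.009 for all tested genes. The genes gained without it were Acat1, Hadha, Ehhadh and Pdk4 in BT-T, Acat1, Cpt1a and Ppargc1a among the lower in BTPRZ-T, and Acox2 among the higher there. All 9 genes called in BT-T and all 14 called in BTPRZ-T with 12 libraries were called without it too.

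The count in BT-T against N moved with single libraries. It was 5 without N replicate 1 or 3, 14 without N replicate 4, 6 without BT-T replicate 1 and 2 without BT-T replicate 2, 3 or 4. The count over all tested genes, 1274 with every library, was 757, 872, 1233, 951, 624, 688 and 722 in the same order. The 2 members called in every such fit were Bdh1 and Acads. Leaving out a BTPRZ-T library, which enters this comparison through the shared estimate of the spread, gave 6 to 13 calls. Over all tested genes these fits gave 1011 to 1709. In BTPRZ-T against N, leaving out any library but N replicate 2 gave 11 to 14 calls. Over all tested genes these fits gave 1076 to 1653, against 1760 with every library. Called there whichever library was left out were Bdh1, Acads, Acadvl, Hadhb, Etfdh, Cpt2, Ehhadh, Acsl5, Ppara and Pdk4.

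**Figure D1:**
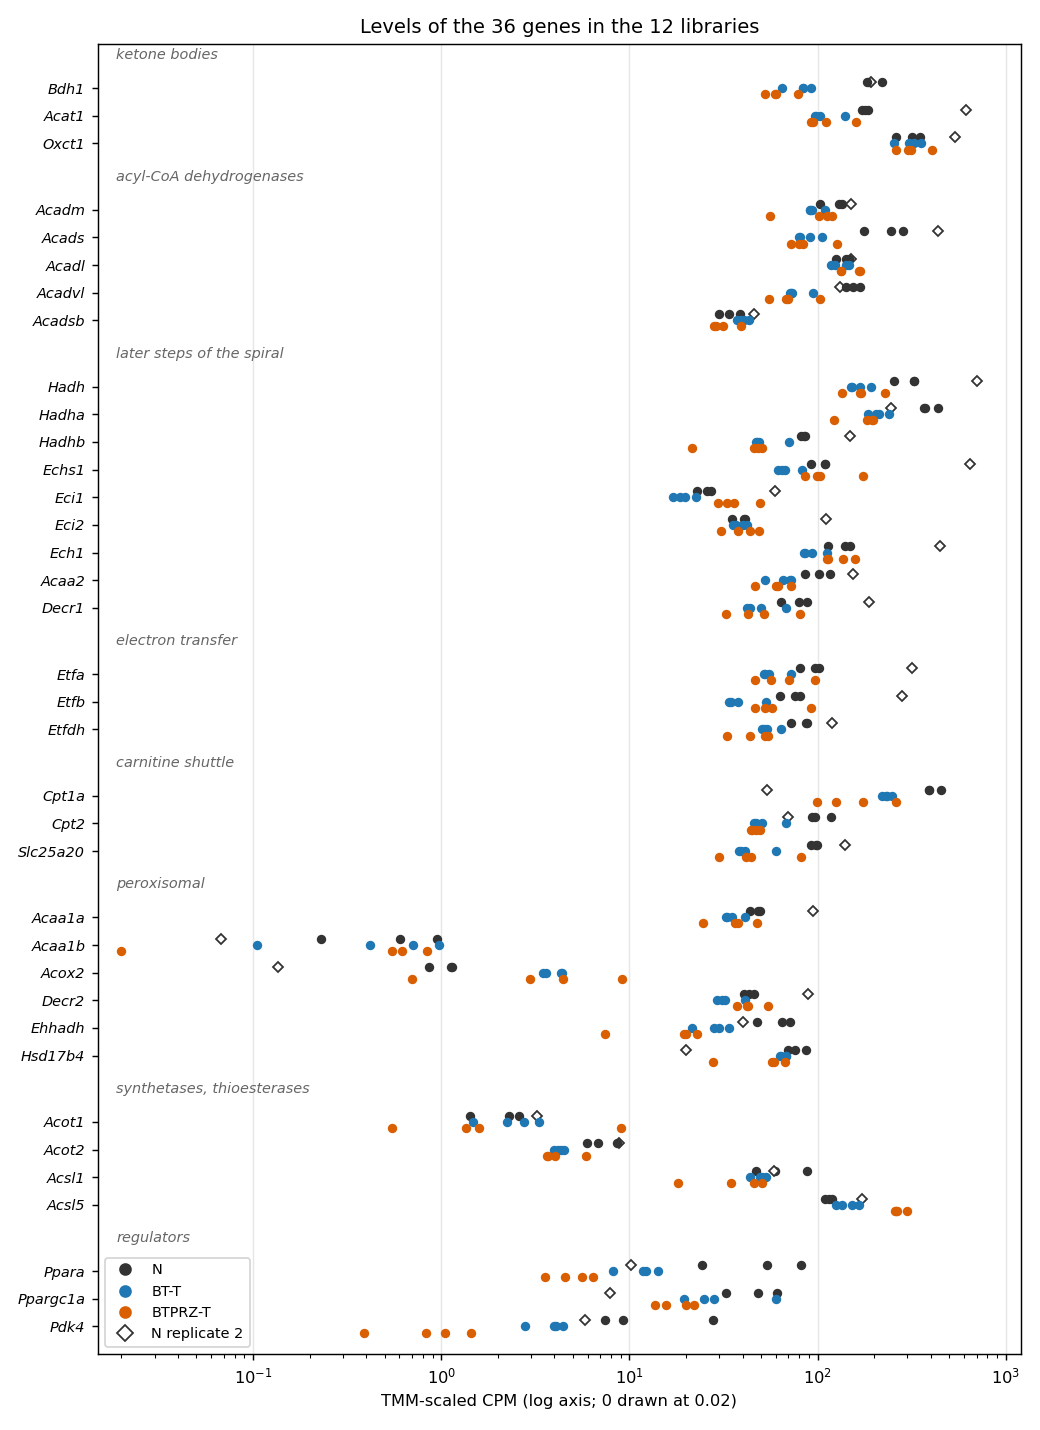
TMM-scaled CPM of the 36 genes (log axis) in each of the 12 libraries, grouped by role; points are libraries coloured by group, and the open diamond is N replicate 2. The diamond lies at the high end of N for Echs1 (646 CPM) and Acat1 (618 CPM) and at the low end for Cpt1a (54.2 CPM), while the Bdh1 libraries of N sit together at 183 to 221 CPM.

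These are counts of whole tissue, in which fewer cells of a type and less RNA per cell cannot be told apart. The summed level of 20 absorptive colonocyte markers was 9526 to 10943 CPM in N, 1011 to 2745 CPM in the BT-T tumours and 807 to 1829 CPM in BTPRZ-T. Of these markers 12 fell in BT-T and 13 in BTPRZ-T, against 2.90% and 6.18% of all tested genes. Slc26a3, the chloride exchanger of surface colonocytes, went from 835 ± 476 CPM in N to 179 ± 104 CPM in BT-T and 51.4 ± 7.20 CPM in BTPRZ-T. The 12 general epithelial markers summed to 12169 to 13480 CPM in N, 10003 to 11881 CPM in the BT-T tumours and 8462 to 17975 CPM in BTPRZ-T, with Epcam at 1423 ± 203, 1077 ± 135 and 1862 ± 541 CPM. The 14 fibroblast markers summed to 1613 to 2584 CPM in N, 10023 to 19338 CPM in the BT-T tumours and 2286 to 9797 CPM in BTPRZ-T, with Col1a1 at 242 ± 95.5, 3180.3 ± 991 and 1215 ± 1038 CPM. The 12 macrophage markers summed to 189 to 706 CPM in N, 1242 to 2089 CPM in the BT-T tumours and 415 to 3013 CPM in BTPRZ-T, and the 10 endothelial markers to 176 to 342, 490 to 880 and 349 to 678 CPM. The 10 smooth muscle markers summed to 7396 to 19134 CPM in N, 3700 to 6043 CPM in the BT-T tumours and 483 to 4891 CPM in BTPRZ-T, with Myh11 at 434 to 3891, 588 to 1301 and 68.3 to 316 CPM. The 10 adipocyte markers, a cell type rich in several of the same enzymes, summed to 58.7 to 115 CPM in N, 37.8 to 53.2 CPM in the BT-T tumours and 21.5 to 65.2 CPM in BTPRZ-T. Adipoq was at 0.810 to 2.19 CPM in N and at 0 in all 4 BT-T libraries. In BT-T and BTPRZ-T, 11 and 5 fibroblast, 7 and 6 macrophage and 4 and 2 endothelial markers rose, against 5.67% and 5.66% of all tested genes. Of the smooth muscle markers 1 and 7 fell, and of 7 tested adipocyte markers 3 and 3. Of the general epithelial markers 0 passed in BT-T and 1 rose in BTPRZ-T. The part of these cell types in the results was not tested.

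Of the 3 ketone body genes, Bdh1 fell in both tumours, Acat1 passed the test in both once N replicate 2 was left out, and Oxct1 did not pass. Bdh1 (chromosome 16, 31422280 to 31458901, plus strand) encodes the mitochondrial dehydrogenase that interconverts acetoacetate and beta-hydroxybutyrate. It stood at 187, 192, 221 and 183 CPM in N replicates 1 to 4, at 83.6, 83.4, 64.7 and 92.3 CPM in BT-T and at 79.1, 60.0, 59.7 and 52.5 CPM in BTPRZ-T. Every tumour library was below every N library, and N replicate 2 was among the others at 0.977 times their mean. Bdh1 was 2.42-fold lower in BT-T (log2 fold change -1.27 ± 0.20, adjusted p = 0.00239) and 3.12-fold lower in BTPRZ-T (-1.64 ± 0.20, adjusted p = 0.000541). Leaving out N replicate 2 gave -1.28 ± 0.18 and -1.65 ± 0.18, with adjusted p = 0.000899 and 0.000111.

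Acat1 (chromosome 9, 53580522 to 53610382, minus strand), the mitochondrial acetoacetyl-CoA thiolase, was among the genes most raised in N replicate 2. Its levels were 179.8, 618, 185 and 172 CPM in N, 141, 98.1, 97.0 and 103 CPM in BT-T and 159.7, 111, 94.97 and 92.7 CPM in BTPRZ-T. The N library at 618 CPM was 3.45 times the mean of the other N libraries. With it, the log2 fold change was -1.40 ± 0.41 in BT-T (adjusted p = 0.0553), and for BTPRZ-T it was -1.33 ± 0.41 (adjusted p = 0.0540). Without it the differences were smaller in size and past the threshold, at -0.71 ± 0.21 (adjusted p = 0.0439) and -0.64 ± 0.21 (adjusted p = 0.0352). Oxct1, the transferase that activates acetoacetate for use as fuel, stood at 261 to 537 CPM in N, 254 to 355 CPM in the BT-T tumours and 260.3 to 406 CPM in BTPRZ-T, ranges that overlapped. Its log2 fold changes were -0.24 ± 0.26 and -0.19 ± 0.26 (adjusted p = 0.629 and 0.721), and without N replicate 2 they were 0.00022 and 0.047 ± 0.19.

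Among the acyl-CoA dehydrogenases, which take the first step of the spiral, the enzymes for short and for very long chains fell and the other 3 did not pass the test. Acads (chromosome 5, 115110299 to 115119346, minus strand), the short-chain enzyme that acts on butyryl-CoA, was at 245, 438, 285 and 177 CPM in N, at 106, 80.4, 79.6 and 90.9 CPM in BT-T and at 126, 79.3, 84.2 and 72.7 CPM in BTPRZ-T. N overlapped neither tumour group, although it spread more widely than both, and the tumour groups overlapped each other. Acads was 3.21-fold lower in BT-T (-1.68 ± 0.29, adjusted p = 0.00399) and 3.158-fold lower in BTPRZ-T (-1.66 ± 0.29, adjusted p = 0.00350). The values without N replicate 2 were -1.40 ± 0.22 and -1.38 ± 0.22 (adjusted p = 0.00202 and 0.00115).

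Acadvl (chromosome 11, 70010183 to 70015411, minus strand), the membrane-bound enzyme for very long chains, was at 155, 132, 169 and 142 CPM in N, 94.6, 71.3, 72.9 and 72.3 CPM in BT-T and 103, 69.8, 68.2 and 55.0 CPM in BTPRZ-T. All tumour libraries lay below all N libraries. The log2 fold changes were -0.94 ± 0.22 (adjusted p = 0.0201) and -1.02 ± 0.22 (adjusted p = 0.0112). The BT-T call was lost, with an adjusted p of up to 0.0828, without N replicate 1 or 3 or BT-T replicate 2, 3 or 4. Acadl, the long-chain enzyme, gave the flattest pattern of the family, at 142, 150.3, 147 and 126 CPM in N, 146, 124, 142 and 118 CPM in BT-T and 169, 166, 134 and 133 CPM in BTPRZ-T. Its 3 groups overlapped, with log2 fold changes of -0.090 ± 0.18 and 0.092 ± 0.18 (adjusted p = 0.821 and 0.825). The medium-chain Acadm, at 103 to 151, 90.7 to 109 and 55.6 to 119.8 CPM in N, BT-T and BTPRZ-T, had fold changes of -0.44 ± 0.24 and -0.41 ± 0.24 (adjusted p = 0.292 and 0.324). Acadsb, which acts on short branched chains from isoleucine, stood at 29.8 to 46.0, 37.5 to 43.3 and 28.3 to 39.3 CPM, with 0.12 ± 0.20 and -0.21 ± 0.20 (adjusted p = 0.785 and 0.576).

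**Figure D2:**
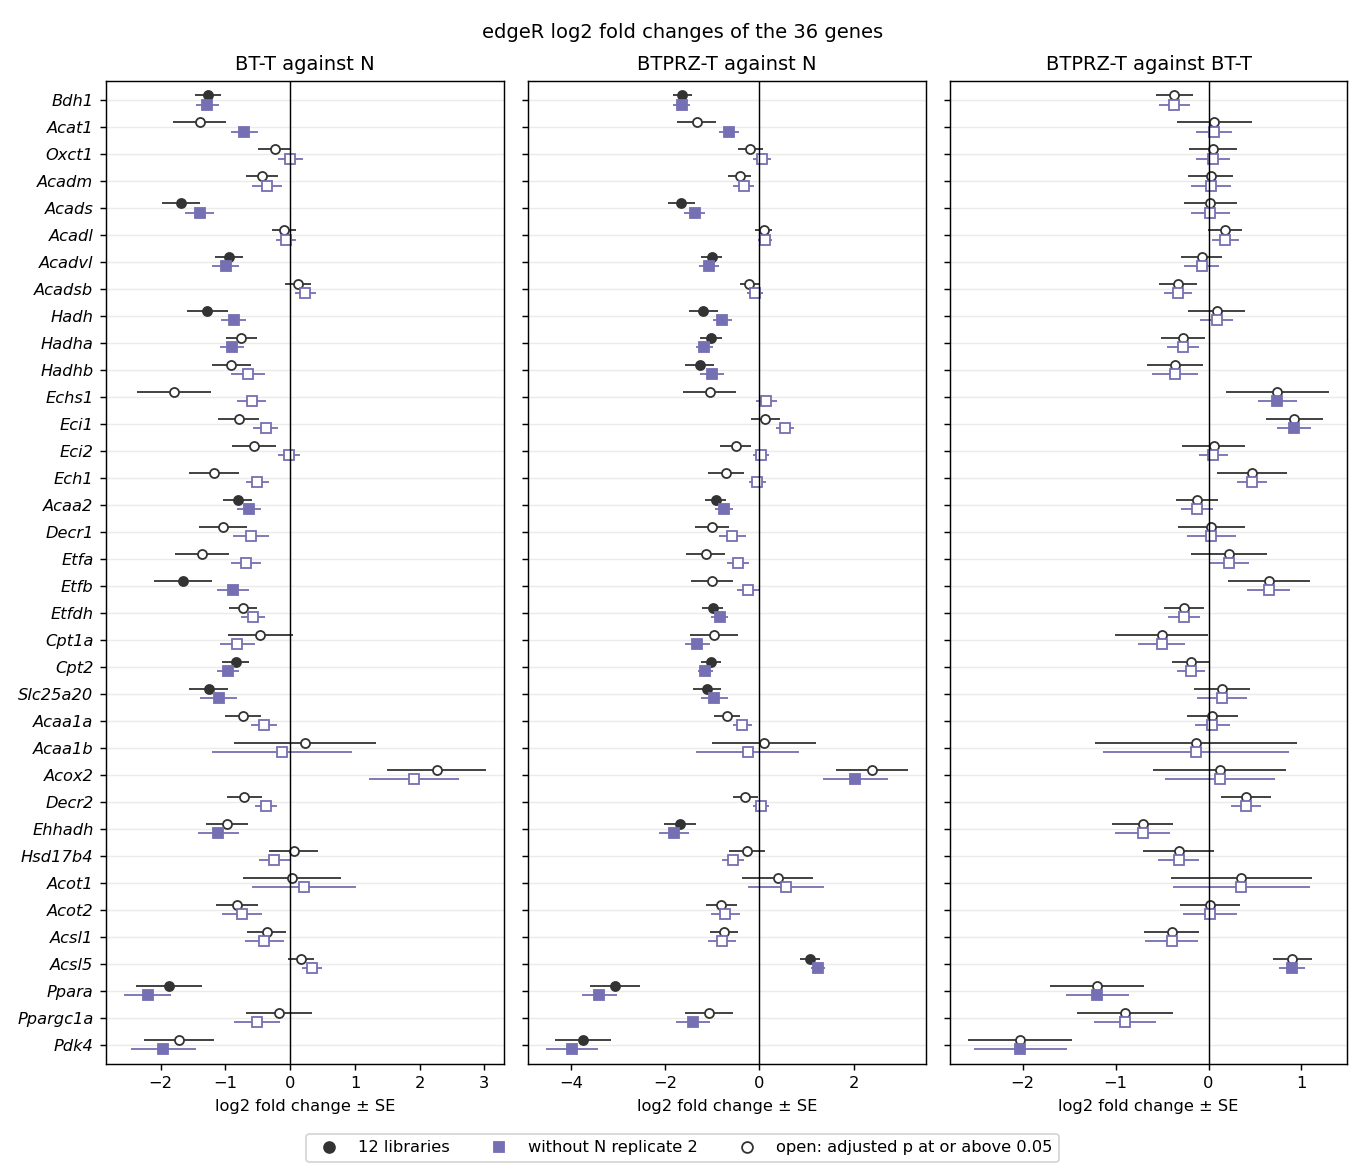
Log2 fold change ± SE of each of the 36 genes in the 3 comparisons (x axis), with all 12 libraries (circles) and without N replicate 2 (squares); filled symbols have an adjusted p under 0.05. Bdh1 and Acads are filled in both comparisons with N and by both fits, Ppara and Pdk4 lie farthest left in BTPRZ-T against N at -3.08 and -3.75, and all circles are open in BTPRZ-T against BT-T.

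The later steps of the mitochondrial spiral are carried by 9 of the genes, of which 2 fell in BT-T and 4 in BTPRZ-T. Hadh (chromosome 3, 131233419 to 131272101, minus strand), the 3-hydroxyacyl-CoA dehydrogenase for shorter chains, stood at 327, 699.8, 327 and 255 CPM in N, 192, 153, 151 and 167 CPM in BT-T and 229, 171, 169 and 135 CPM in BTPRZ-T. No tumour library reached the lowest N library. Its log2 fold changes were -1.28 ± 0.31 (adjusted p = 0.0250) and -1.19 ± 0.31 (adjusted p = 0.0276), and -0.87 ± 0.19 and -0.79 ± 0.19 without N replicate 2, where both stayed past the threshold at adjusted p = 0.0110 and 0.00997. The BT-T call was lost without BT-T replicate 2, 3 or 4 (adjusted p up to 0.0914), and the BTPRZ-T call without BTPRZ-T replicate 2, 3 or 4 (up to 0.124). Acaa2, the mitochondrial 3-ketoacyl-CoA thiolase, stood at 85.9 to 154 CPM in N against 52.7 to 72.3 CPM in the BT-T tumours and 46.3 to 72.1 CPM in BTPRZ-T, again without overlap. Its fold changes were -0.81 ± 0.23 (adjusted p = 0.0454) and -0.93 ± 0.23 (adjusted p = 0.0201). The BT-T call for Acaa2 was kept in 4 of the 12 fits that left out a library, and the BTPRZ-T call was lost without BTPRZ-T replicate 1 or 2.

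Hadha and Hadhb encode the alpha and beta subunits of the mitochondrial trifunctional protein, which joins hydration, dehydrogenation and thiolysis on the inner membrane for long chains. They lie head to head on chromosome 5 of GRCm38, Hadha at 30118304 to 30155162 on the minus strand and Hadhb at 30155248 to 30184593 on the plus strand. The stretch between the annotated starts is printed because the 2 genes share it as their upstream sequence. It is chr5:30155163-30155247 of GRCm38.p6 (plus strand), 85 nt long with 69.4% G or C, and the capitals mark the GC box GGGCGGG, found there once:
Hadha-Hadhb: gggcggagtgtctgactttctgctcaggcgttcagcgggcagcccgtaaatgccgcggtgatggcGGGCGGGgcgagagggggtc
The GC box, searched on both strands over the 300 bases from 250 before to 50 after each RefSeq start, was in 20 of the 32 members with such a window, or 62.5%, in 27.9% of 27025 genes and in 49.97% of the tested genes with a window. Hadhb was among these 20 members. Hadha was not. Its window was searched too, but it is placed by the RefSeq start and did not take in the box printed above. That box does lie upstream of the annotated Hadha start given here.

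Hadha was at 366, 245, 437 and 372 CPM in N, 239, 184, 205 and 213 CPM in BT-T and 198, 182, 194 and 123 CPM in BTPRZ-T. Hadhb was at 84.8, 149.6, 85.5 and 81.4 CPM in N, 70.5, 47.4, 47.0 and 48.8 CPM in BT-T and 50.5, 46.2, 48.5 and 21.6 CPM in BTPRZ-T. For both genes every tumour library was below every N library, but N replicate 2 was the lowest N library for Hadha (0.625 times the mean of the others) and the highest for Hadhb (1.78 times). Both fell in BTPRZ-T, by 1.03 and 1.27 on the log2 scale (adjusted p = 0.0164 and 0.0185), and without N replicate 2 the values were -1.17 ± 0.19 and -1.01 ± 0.26 (adjusted p = 0.00105 and 0.0130). The call for Hadha was lost without N replicate 3. In BT-T the fold changes were -0.75 ± 0.24 and -0.91 ± 0.30 (adjusted p = 0.0738 and 0.0864), and without N replicate 2 Hadha passed at -0.90 ± 0.19 (adjusted p = 0.00810) and Hadhb did not at -0.65 ± 0.26 (adjusted p = 0.131).

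Echs1 (chromosome 7, 140105710 to 140116476, minus strand), the short-chain enoyl-CoA hydratase, had its N mean set by 1 library. It stood at 109.9, 646, 110.1 and 92.0 CPM in N, 82.5, 64.5, 61.7 and 67.1 CPM in BT-T and 174, 99.7, 85.6 and 103 CPM in BTPRZ-T. N replicate 2 was 6.22 times the mean of the other N libraries, the highest such ratio in the set. The log2 fold changes with it were -1.80 ± 0.57 and -1.05 ± 0.56 (adjusted p = 0.0741 and 0.270), and without it -0.59 ± 0.23 and 0.15 ± 0.23 (adjusted p = 0.112 and 0.639), so that the sign for BTPRZ-T changed. Ech1, a dienoyl-CoA isomerase, went the same way, from -0.70 ± 0.38 to -0.041 ± 0.17 in BTPRZ-T and from -1.17 ± 0.39 to -0.51 ± 0.17 in BT-T, with N replicate 2 at 3.33 times the others. The enoyl-CoA isomerases Eci1 and Eci2, which move bonds of unsaturated fatty acids into place, gave -0.80 ± 0.31 and -0.56 ± 0.34 for the BT-T tumours (adjusted p = 0.139 and 0.332) and 0.13 ± 0.31 and -0.51 ± 0.34 in BTPRZ-T (adjusted p = 0.863 and 0.396). N replicate 2 was at 2.35 and 2.84 times the other N libraries for these genes. Without it Eci1 had -0.38 ± 0.20 in BT-T and 0.54 ± 0.20 in BTPRZ-T (adjusted p = 0.255 and 0.0556). All BTPRZ-T libraries were then above the remaining N libraries for Eci1. Eci2 had -0.015 ± 0.17 and 0.038 ± 0.17 without that library (adjusted p = 0.975 and 0.882). Decr1, the mitochondrial dienoyl-CoA reductase, was at 64.1 to 187 CPM in N, 42.4 to 68.0 CPM in the BT-T tumours and 32.7 to 81.1 CPM in BTPRZ-T, with -1.04 ± 0.37 and -1.01 ± 0.37 (adjusted p = 0.103 and 0.0982). None of these 5 genes passed the edgeR test against N with or without N replicate 2, whereas at an unadjusted p under 0.05 with all libraries Echs1, Eci1, Ech1 and Decr1 were lower in BT-T and Decr1 in BTPRZ-T.

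The electron transfer flavoprotein collects electrons from the acyl-CoA dehydrogenases, with subunits from Etfa and Etfb, and Etfdh passes them to ubiquinone. Etfdh was at 87.0, 119, 87.8 and 72.5 CPM in N, 64.2, 52.2, 53.6 and 50.8 CPM in BT-T and 44.0, 52.4, 54.4 and 33.1 CPM in BTPRZ-T, without overlap between N and either tumour group. It fell in BTPRZ-T (-0.99 ± 0.22, adjusted p = 0.0124; -0.84 ± 0.18, adjusted p = 0.00542 without N replicate 2). In BT-T it did not pass (-0.73 ± 0.22, adjusted p = 0.0607). Etfb was at 76.4, 279.6, 81.0 and 63.0 CPM in N, 53.2, 34.7, 33.7 and 37.6 CPM in BT-T and 92.6, 57.6, 46.7 and 52.8 CPM in BTPRZ-T. N replicate 2 was again far above the rest, and the BTPRZ-T libraries overlapped the other N libraries. Etfb fell in BT-T (-1.65 ± 0.45, adjusted p = 0.0403), and without N replicate 2 the change was -0.88 ± 0.24 (adjusted p = 0.0326). The call was lost without any 1 of the 4 BT-T libraries or without BTPRZ-T replicate 2. In GENCODE M21, 65.2% of the windows of 100 bases in its transcript also occur in Gm45233, so some of its reads may not be counted as unique to it. Etfa gave -1.36 ± 0.42 and -1.14 ± 0.41 (adjusted p = 0.0645 and 0.0989), with N replicate 2 at 3.42 times the other N libraries.

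The carnitine shuttle fell at 2 of its 3 genes in both tumours. Cpt2 (chromosome 4, 107903981 to 107923610, minus strand), the inner membrane transferase, was at 96.9, 70.1, 118 and 93.3 CPM in N, 68.1, 45.9, 47.2 and 50.5 CPM in BT-T and 44.1, 49.6, 47.2 and 45.0 CPM in BTPRZ-T. The highest tumour library, BT-T replicate 1, lay just under N replicate 2. Cpt2 was 1.79-fold lower in BT-T (-0.84 ± 0.21, adjusted p = 0.0262) and 2.04-fold lower in BTPRZ-T (-1.03 ± 0.21, adjusted p = 0.00792). The BT-T call was lost without N replicate 1 or 3 or BT-T replicate 2, 3 or 4 (adjusted p up to 0.106). Slc25a20, the translocase that carries acylcarnitines across the inner membrane, was at 91.9 to 139.6 CPM in N, 38.3 to 60.1 CPM in the BT-T tumours and 29.9 to 82.1 CPM in BTPRZ-T. It did not overlap N in either tumour group, with -1.26 ± 0.30 (adjusted p = 0.0235) and -1.11 ± 0.30 (adjusted p = 0.0323). Its call held in 9 of the 12 fits that left out a library in BT-T, being lost without BT-T replicate 2, 3 or 4, and in 5 of 12 in BTPRZ-T, being lost without N replicate 1, 3 or 4, BT-T replicate 4 or BTPRZ-T replicate 2, 3 or 4.

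Cpt1a (chromosome 19, 3322334 to 3385733, plus strand), the outer membrane transferase that controls entry of long chains into mitochondria, was far lower in N replicate 2 than in the other N libraries. It stood at 389.7, 54.2, 455 and 391 CPM in N, 234, 221, 231 and 248.8 CPM in BT-T and 126, 175, 261 and 98.9 CPM in BTPRZ-T. N replicate 2 was below all 8 tumour libraries, and the other N libraries were above all of them. With all libraries the log2 fold changes were -0.46 ± 0.50 and -0.97 ± 0.50 (adjusted p = 0.628 and 0.258). Without N replicate 2 they were -0.82 ± 0.27 (adjusted p = 0.0670) and -1.32 ± 0.27 (adjusted p = 0.00397), the latter past the threshold.

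The 6 peroxisomal genes held 1 call with all libraries. Ehhadh (chromosome 16, 21761287 to 21787807, minus strand), the bifunctional hydratase and dehydrogenase of straight chains, was at 65.0, 40.1, 71.0 and 47.9 CPM in N, 30.1, 28.2, 21.5 and 33.8 CPM in BT-T and 19.6, 19.96, 22.8 and 7.46 CPM in BTPRZ-T. Both tumour groups lay below N without overlap. Ehhadh fell 3.22-fold in BTPRZ-T (-1.69 ± 0.33, adjusted p = 0.00717). In BT-T it had -0.98 ± 0.33 (adjusted p = 0.0886), and -1.11 ± 0.32 without N replicate 2 (adjusted p = 0.0371). Hsd17b4, the other bifunctional enzyme, which takes branched chains and bile acid precursors, did not pass, at 0.054 ± 0.38 and -0.27 ± 0.38 (adjusted p = 0.956 and 0.740). N replicate 2 was at 0.258 times the other N libraries for Hsd17b4. Without it the values were -0.24 ± 0.24 and -0.56 ± 0.24 (adjusted p = 0.608 and 0.0892), so that the sign for BT-T changed. Hsd17b4 did not pass in that fit either, but all tumour libraries were then below the remaining N libraries.

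Acox2, the branched-chain acyl-CoA oxidase that also shortens bile acid precursors, had the largest positive fold changes against N, at low levels. It stood at 0.863, 0.135, 1.12 and 1.15 CPM in N, 3.59, 4.33, 4.37 and 3.50 CPM in BT-T and 2.97, 4.45, 9.09 and 0.698 CPM in BTPRZ-T. All BT-T libraries were above all N libraries, while BTPRZ-T replicate 4 lay within the N range. The log2 fold changes were 2.26 ± 0.76 (adjusted p = 0.0907) and 2.38 ± 0.77 (adjusted p = 0.0636), and without N replicate 2 they were 1.91 ± 0.69 (adjusted p = 0.0939) and 2.04 ± 0.69 (adjusted p = 0.0422). Decr2, the peroxisomal dienoyl-CoA reductase, gave -0.71 ± 0.27 and -0.30 ± 0.27 (adjusted p = 0.129 and 0.541). N replicate 2 was at 2.04 times the other N libraries for Decr2. Without it the values were -0.37 ± 0.17 and 0.028 ± 0.17 (adjusted p = 0.197 and 0.912). The thiolase Acaa1a gave -0.73 ± 0.28 and -0.69 ± 0.28 (adjusted p = 0.135 and 0.139). Without N replicate 2, at 2.01 times the others, Acaa1a had -0.41 ± 0.20 and -0.37 ± 0.20 (adjusted p = 0.227 and 0.182). Its near-identical copy Acaa1b never exceeded 0.974 CPM and had standard errors of 1.1 in both comparisons, and its values are uncertain, since 22.6% of its windows of 100 bases also occur in Acaa1a and only reads placed at 1 site were counted.

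Of the acyl-CoA synthetases and thioesterases, which load and unload fatty acids, 1 member, Acsl5, rose in BTPRZ-T and the other 3 did not pass the test in either tumour. Acsl5 (chromosome 19, 55251938 to 55297720, plus strand), a long-chain acyl-CoA synthetase known from intestinal epithelium, was at 116, 173, 109 and 119.7 CPM in N, 153, 125.3, 166 and 136 CPM in BT-T and 299, 260.4, 258 and 265 CPM in BTPRZ-T. All BTPRZ-T libraries were above all others. BT-T overlapped N through N replicate 2 alone, and all BT-T libraries were above N replicates 1, 3 and 4. Without N replicate 2 the log2 fold change in BT-T was 0.34 ± 0.15 (adjusted p = 0.169). Acsl5 rose 2.10-fold in BTPRZ-T (1.07 ± 0.21, adjusted p = 0.00648; 1.24 ± 0.15, adjusted p = 0.000249 without N replicate 2) and had 0.17 ± 0.21 in BT-T (adjusted p = 0.684). The related Acsl1 stood at 47.4 to 87.6, 43.8 to 53.0 and 18.1 to 50.7 CPM in N, BT-T and BTPRZ-T, with -0.36 ± 0.30 and -0.76 ± 0.30 (adjusted p = 0.495 and 0.125). The thioesterases were low. Acot2, the mitochondrial form, was at 5.97 to 8.80 CPM in N, 4.00 to 4.50 CPM in the BT-T tumours and 3.67 to 5.87 CPM in BTPRZ-T, with -0.83 ± 0.33 and -0.81 ± 0.33 (adjusted p = 0.144 and 0.136). Acot1, the cytosolic form, reached 8.99 CPM in BTPRZ-T replicate 4 and 1.42 to 3.25 CPM in N, with fold changes of 0.032 ± 0.76 and 0.39 ± 0.76. Values of the pair are uncertain, since 17.1% of the windows of Acot2 occur in Acot1 and 11.97% of those of Acot1 in Acot2.

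Among the regulators, Ppara fell in both tumours and Pdk4 in BTPRZ-T. Ppara (chromosome 15, 85734983 to 85802819, plus strand) encodes the fatty acid sensing nuclear receptor that switches on genes of fatty acid oxidation. It was at 54.2, 10.2, 81.4 and 24.2 CPM in N, 11.8, 12.2, 8.16 and 14.1 CPM in BT-T and 3.55, 6.41, 4.57 and 5.59 CPM in BTPRZ-T. N was widely spread, and N replicate 2 lay within the BT-T range, while all BTPRZ-T libraries lay below all others. Ppara was 3.67-fold lower in BT-T (-1.88 ± 0.51, adjusted p = 0.0396) and 8.43-fold lower in BTPRZ-T (-3.08 ± 0.54, adjusted p = 0.00329). Without N replicate 2 these were -2.20 ± 0.36 and -3.40 ± 0.37 (adjusted p = 0.00221 and 0.000127). The BT-T call was kept in 4 of the 12 fits that left out a library, with an adjusted p of up to 0.132.

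Pdk4 (chromosome 6, 5483351 to 5496309, minus strand), the kinase that shuts off pyruvate dehydrogenase when fat is burned, was at 7.43, 5.82, 28.0 and 9.25 CPM in N, 4.46, 3.99, 2.79 and 4.05 CPM in BT-T and 0.387, 1.44, 0.826 and 1.05 CPM in BTPRZ-T. The 3 groups did not overlap, and N replicate 3 was far above the other N libraries. Pdk4 fell 13.5-fold in BTPRZ-T (-3.75 ± 0.60, adjusted p = 0.00199), from a low level. In BT-T it had -1.72 ± 0.54 (adjusted p = 0.0722), and -1.96 ± 0.50 without N replicate 2 (adjusted p = 0.0233). Ppargc1a, the coactivator of mitochondrial genes, was at 48.5, 7.85, 32.5 and 61.0 CPM in N, 28.3, 24.9, 19.6 and 60.4 CPM in BT-T and 13.7, 22.1, 15.6 and 19.9 CPM in BTPRZ-T. BT-T replicate 4 lay next to the highest N library, and N replicate 2 was below every tumour library. Its fold changes were -0.17 ± 0.51 and -1.07 ± 0.52 (adjusted p = 0.883 and 0.222), and without N replicate 2 it passed in BTPRZ-T at -1.41 ± 0.36 (adjusted p = 0.0123).

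**Figure D3:**
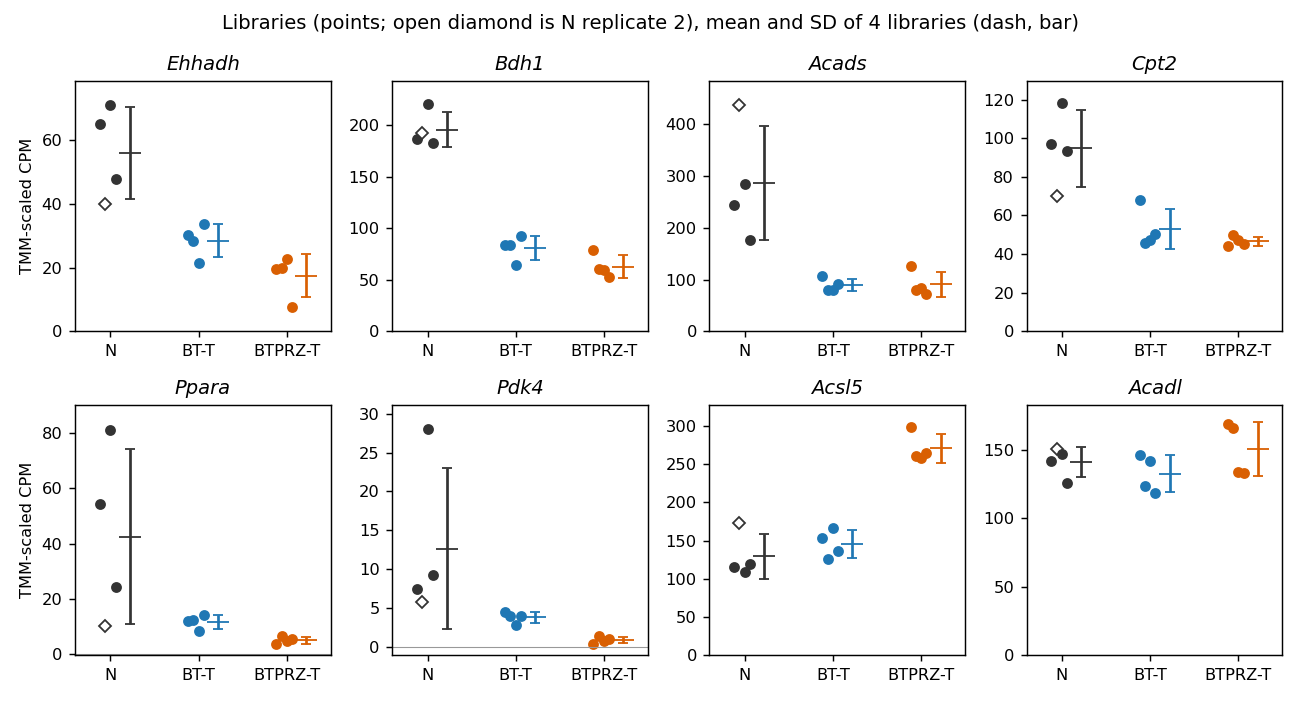
TMM-scaled CPM (y axes, each with its own range) of 8 genes in the N, BT-T and BTPRZ-T libraries, with points for libraries, an open diamond for N replicate 2, and dash and bar for the mean and SD of 4 libraries. Ehhadh, Bdh1, Acads, Cpt2 and Pdk4 are lower in every tumour library than in every N library, Ppara overlaps between N and BT-T through N replicate 2, Acsl5 is at 258 to 299 CPM in BTPRZ-T alone, and Acadl overlaps throughout.

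The promoters of the set were searched for the sequence to which PPAR-alpha binds together with its partner receptor RXR, a repeat of AGGTCA with 1 base between the copies. The strict form AGGTCANAGGTCA, on both strands of the same windows of 300 bases, was in 0 of 32 members and in 13 of 27025 genes (0.0481%). The single hexamer AGGTCA was in 4 of 32 (12.5%), in 18.1% of all genes and in 15.0% of tested genes, counted on both strands, and any full repeat would hold it too. The members with it were Acadm, Acadvl, Echs1 and Cpt1a. The stretches around it are printed for the 3 in which it lies outside annotated exons, from RefSeq on GRCm38.p6, each on the gene's own strand, with the hexamer or its reverse complement TGACCT in capitals:
Acadm, chr3:153944863-153944893 (minus strand): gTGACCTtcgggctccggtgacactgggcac
Acadvl, chr11:70015486-70015539 (minus strand): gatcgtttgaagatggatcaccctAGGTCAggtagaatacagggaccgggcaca
Cpt1a, chr19:3323183-3323236 (plus strand): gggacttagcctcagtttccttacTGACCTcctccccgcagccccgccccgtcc
The hexamer begins 249, 87 and 94 bases before the RefSeq start in Acadm, Acadvl and Cpt1a. Of the 3, Acadvl fell in both tumours, Acadm did not pass in either, and Cpt1a passed in BTPRZ-T without N replicate 2. Such a match is a description of the letters, and its absence from a window says nothing about binding elsewhere.

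BTPRZ-T and BT-T were compared directly, which also tests whether their differences from N differ. With all 12 libraries 0 of the 36 members passed, where 0.754% of all tested genes did. At an unadjusted p under 0.05, Ppara and Pdk4 were lower in BTPRZ-T and Eci1 and Acsl5 higher, against 10.1% and 7.12% of all tested genes. DESeq2 called 1 member lower and 1 higher, against 6.18% and 2.31% of the genes to which it gave an adjusted p. The median log2 fold change was 0.022 for the set and -0.026 for all tested genes. The libraries of Ppara and Pdk4 did not overlap in the lower direction, nor those of Echs1, Eci1, Ech1 and Acsl5 in the higher, a count of 2 and 4 against 12.7% and 11.5% of all tested genes.

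N replicate 2 is in neither group of this comparison and entered it through the shared fit. Without it 5 members passed, 3 higher and 2 lower in BTPRZ-T, as did 9.81% and 8.23% of all tested genes, 18.0% in all. Acsl5 was higher in BTPRZ-T by 0.90 ± 0.14 (adjusted p = 0.00435, from 0.0707 with all libraries), and Eci1 by 0.92 ± 0.18 (adjusted p = 0.00918, from 0.165). Echs1 was higher by 0.74 ± 0.21 (adjusted p = 0.0329, from 0.5003). Ppara was at -1.20 ± 0.34 (adjusted p = 0.0325, from 0.255) and Pdk4 at -2.03 ± 0.50 (adjusted p = 0.0193, from 0.104). Echs1, Eci1 and Ech1 were also 6.22, 2.35 and 3.33 times as high in N replicate 2 as in the other N libraries, and Ppara and Pdk4 0.191 and 0.391 times as high. BTPRZ-T had the larger share of ribosomal protein transcripts, as N replicate 2 did, and the part of library composition in these differences was not tested. With each library's trend on transcript length removed and all libraries kept, the values were 1.08 for Acsl5, 0.33 for Eci1, 0.91 for Echs1, -1.15 for Ppara and -1.98 for Pdk4, with adjusted p = 0.0714, 0.326, 0.483, 0.2199 and 0.0860.

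Levels of different genes were set side by side per kilobase of the longest annotated transcript, which need not be the one expressed. In N replicates 1, 3 and 4 the highest mean levels were those of Acads (116 CPM per kb), Ech1 (106), Hadha (97.5), Cpt1a (95.4) and Oxct1 (87.9). In BT-T they were those of Oxct1 (87.9 CPM per kb), Ech1 (74.4), Acadl (69.2), Cpt1a (54.1) and Hadha (52.3), and Acads was at 44.1. In BTPRZ-T the order began with Ech1 (103 CPM per kb), Oxct1 (90.9), Acadl (78.5), Etfb (69.9) and Acsl5 (63.8). With all 4 N libraries the mean was highest for Ech1 (167 CPM per kb), before Acads (141) and Etfb (140.0), so Acads was first in the mean without N replicate 2 and next after Ech1 in the mean with it. Acadl was at 72.1 CPM per kb in N replicates 1, 3 and 4. The lowest in N were Acaa1b, Acox2 and Acot1, all under 1 CPM per kb.

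N replicate 2 was compared gene by gene with the mean of the other N libraries. The median log2 ratio was 0.53 for the 36 members and -0.21 over 14208 genes with a transcript length. Its summed level of the 36 genes was 6455 CPM, against 3725 to 4298 CPM in N replicates 1, 3 and 4, 2391 to 2961 CPM in the BT-T tumours and 2182 to 3228 CPM in BTPRZ-T. Across the 36 genes the log2 ratio had a Pearson correlation of -0.35 with the log2 transcript length (Spearman -0.27), and across the 14208 genes of -0.54. These points share 4 libraries, and genes are not independent replicates.

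**Figure D4:**
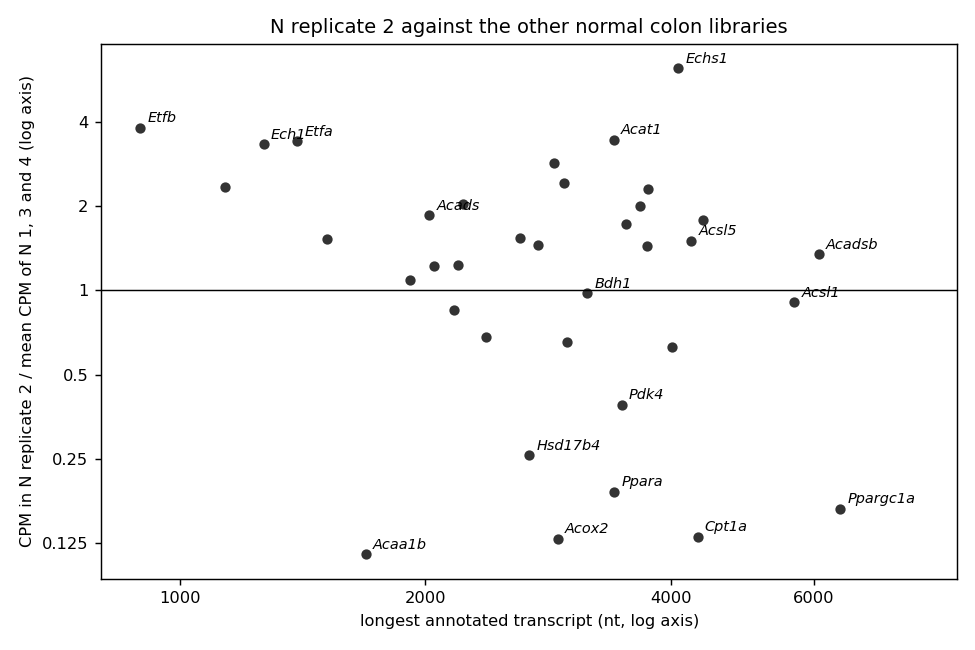
Ratio of CPM in N replicate 2 to the mean of N replicates 1, 3 and 4 (y axis, log scale) against the longest annotated transcript in nt (x axis, log scale), 1 point per gene of the set. Echs1, Etfb, Acat1, Etfa and Ech1 lie above a ratio of 3, and Acaa1b, Acox2, Cpt1a, Ppargc1a and Ppara lie below 0.2.

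Other genes of the pathway were taken from lists, whose counts are set against the 2.90% of all tested genes that fell and 5.67% that rose in BT-T, and 6.18% and 5.66% in BTPRZ-T. In lists of this size 1 call is near those shares. Of 20 tested further enzymes of fatty acid oxidation and ketone bodies, 1 fell in BT-T and 3 in BTPRZ-T, and 0 rose in either with all libraries (1 was higher in each at an unadjusted p under 0.05, against 11.5% and 11.4% of all tested genes). Their median log2 fold changes were -0.60 in both. Phyh, the peroxisomal hydroxylase of phytanic acid, fell in both (-1.52 ± 0.40 and -1.51 ± 0.40, adjusted p = 0.0341 and 0.0281). Acss1, the mitochondrial acetyl-CoA synthetase, was at 201, 103, 199 and 153 CPM in N, 113, 102, 89.4 and 97.1 CPM in BT-T and 73.4, 60.2, 82.1 and 58.8 CPM in BTPRZ-T. It fell in BTPRZ-T (-1.26 ± 0.24, adjusted p = 0.00523) and had -0.71 ± 0.24 in BT-T (adjusted p = 0.0844; 0.00518 without N replicate 2). Acad11, an acyl-CoA dehydrogenase, also fell in BTPRZ-T (-2.04 ± 0.48, adjusted p = 0.0174) and had -1.05 ± 0.47 in BT-T (adjusted p = 0.197; 0.0128 without N replicate 2). Cpt1b, the muscle form of the outer membrane transferase, had 15 reads in all 12 libraries and was not tested.

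Of 18 tested genes for fatty acid uptake, activation and thioesterases, 2 fell and 1 rose in BT-T, and 4 fell and 1 rose in BTPRZ-T. Without N replicate 2, 6 fell in BT-T and 7 in BTPRZ-T, against 5.70% and 15.7% of all tested genes. In that fit 2 and 3 rose, against 7.79% and 16.6%. Fabp2, the intestinal fatty acid binding protein, which also stands among the absorptive colonocyte markers, had -7.32 ± 0.78 in BT-T (adjusted p = 0.000352), and for BTPRZ-T -4.61 ± 0.68 (adjusted p = 0.00143), from 104 to 776 CPM in N. Acsl4, a synthetase with a preference for arachidonate, rose from 31.8 to 41.8 CPM in N to 82.6 to 110.0 CPM in BT-T (1.37 ± 0.18, adjusted p = 0.000850) and 56.5 to 65.0 CPM in BTPRZ-T (0.68 ± 0.18, adjusted p = 0.0254). Acot7, a thioesterase, fell in both (-1.39 ± 0.37 and -1.28 ± 0.36, adjusted p = 0.0348 and 0.0401).

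Of 17 tested regulators and targets of the PPAR receptors outside the set, 1 fell and 1 rose in BT-T, and 2 fell in BTPRZ-T. Without N replicate 2, 5 fell in BT-T and 5 in BTPRZ-T, against 5.70% and 15.7% of all tested genes. In that fit 1 rose in each, against 7.79% and 16.6%. Esrra, a nuclear receptor that works with PGC-1 coactivators on mitochondrial genes, fell in BT-T (-0.94 ± 0.24, adjusted p = 0.0284) and had -0.45 ± 0.24 in BTPRZ-T (adjusted p = 0.265). Angptl4, a secreted inhibitor of lipoprotein lipase and a known PPAR target that also responds to other signals, was at 1.42 to 9.14 CPM in N, 17.4 to 39.0 CPM in the BT-T tumours and 2.42 to 21.9 CPM in BTPRZ-T. It rose in BT-T (2.91 ± 0.76, adjusted p = 0.0329), against the direction of Ppara, and had 1.84 ± 0.73 in BTPRZ-T (adjusted p = 0.130). Without N replicate 2, Angptl4 passed in both, at 3.97 ± 0.70 in BT-T and 2.89 ± 0.67 in BTPRZ-T (adjusted p = 0.00325 and 0.00738). Ppargc1b, the second PGC-1 coactivator, was at 65.3, 14.6, 65.9 and 76.7 CPM in N, 23.7, 18.7, 14.1 and 29.0 CPM in BT-T and 7.68, 16.9, 14.6 and 6.85 CPM in BTPRZ-T. It fell in BTPRZ-T (-2.27 ± 0.49, adjusted p = 0.0103) and had -1.38 ± 0.47 in BT-T (adjusted p = 0.0936; 0.00528 without N replicate 2).

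Lists of pathways next to fatty acid oxidation were read against the same shares of all tested genes, 2.90% lower in BT-T and 6.18% lower in BTPRZ-T. Of 21 genes of the citrate cycle and pyruvate dehydrogenase, 3 fell in the BT-T tumours and 5 in BTPRZ-T, with median log2 fold changes of -0.89 and -0.92, and 16 were lower in each at an unadjusted p under 0.05, against 12.6% and 14.1% of all tested genes. Dld, the shared dehydrogenase subunit, had -1.02 ± 0.23 and -1.01 ± 0.23 (adjusted p = 0.0156 and 0.0131). Mdh2, the mitochondrial malate dehydrogenase, fell in BT-T (-0.89 ± 0.25, adjusted p = 0.0457) and had -0.67 ± 0.25 in BTPRZ-T (adjusted p = 0.108). Dlst, a subunit of the oxoglutarate dehydrogenase, had -0.74 ± 0.17 and -0.60 ± 0.17 (adjusted p = 0.01999 and 0.0427). Of 16 genes of fatty acid synthesis, 2 fell in the BT-T tumours and 4 in BTPRZ-T, with medians of -0.16 and -0.51. The lipogenic transcription factor Mlxipl had -1.34 ± 0.32 and -0.77 ± 0.32 (adjusted p = 0.0218 and 0.143), the elongase Elovl6 -1.16 ± 0.32 and -1.09 ± 0.32 (adjusted p = 0.0422 and 0.0440), and Thrsp, at or below 1.90 CPM, -2.70 ± 0.89 and -4.58 ± 1.01 (adjusted p = 0.0818 and 0.0120). Of 14 genes of the mitochondrial outer membrane and protein import, 1 fell in each comparison, the channel Vdac3, with -1.13 ± 0.29 and -1.12 ± 0.29 (adjusted p = 0.0324 and 0.0276), and the medians were -0.61 and -0.28. Without N replicate 2 the citrate cycle list held 9 falls in BT-T and 8 in BTPRZ-T, the list of further fatty acid oxidation enzymes 5 and 7, and the fatty acid synthesis list 2 and 7, where 5.70% and 15.7% of all tested genes fell. Of the further enzymes 3 rose in BTPRZ-T in that fit and 0 in BT-T (1 at an unadjusted p under 0.05), where 16.6% and 7.79% of all tested genes rose.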

How the data were processed

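Poly(A) RNA of 12 mouse colon samples was sequenced with a stranded kit as single reads of 100 bases, per the labels' protocols. The submitters' processing notes name bcl2fastq 2.20, STAR 2.4.2a, edgeR 3.16.5, limma, HTSeq and mm10, without their steps. The gene models behind the counts are not stated in these sources. The authors deposited raw read counts per gene, unnormalized, with 0 reads counted at several loci. Counts came from the stranded column with more gene reads. Those of the opposite strand were 0.819 to 0.994% as many.

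Genes were filtered with filterByExpr by group and scaled by TMM. One edgeR 4.0.16 quasi-likelihood model (R 4.3.3, robust) with a mean per group gave 3 two-sided contrasts, with Benjamini-Hochberg adjustment over 14860 genes and a threshold of 0.05. The steps were tested on simulated counts. No pair of libraries of the same group agreed within sampling noise (lowest chi-square per gene 28.8). Pairs across groups were not compared in this way. Alternatives were DESeq2 1.42.0, limma 3.58.1 voom with sample quality weights, RLE factors, the unstranded column, no filter, fits of the 2 compared groups by themselves, a replicate term, removal of each library's trend on transcript length, and left-out libraries. Positions and lengths are from GENCODE M21 on GRCm38, and promoters from RefSeq on GRCm38.p6.

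The members and lists were chosen with earlier results of these data known. Some genes of the further lists are not reported here and stand in no count of a list. All members are named, with Cpt1b and, per further list, up to 3 called genes with the lowest p in BT-T against N.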

Additional observations from a re-analysis of the deposited data

Results flagged for a closer look

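In each group of 4 libraries the highest and the lowest were compared with the rest for every one of the 36 genes, 108 groups in all, and a library was singled out where its gap to the next took most of the whole range (Dixon's test). Chance gives about 1 in 20 groups, and 24 were found. N replicate 2 accounted for 14 of them. It was the high library for Acat1 (618 CPM), Hadh (699.8 CPM), Hadhb (149.6 CPM), Echs1 (646 CPM), Eci1 (59.5 CPM), Eci2 (111 CPM), Ech1 (447 CPM), Etfa (317 CPM), Etfb (279.6 CPM), Slc25a20 (139.6 CPM), Acaa1a (94.4 CPM), Decr2 (88.7 CPM) and Acsl5 (173 CPM), and the low library for Cpt1a (54.2 CPM).

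BT-T replicate 1 was the high library of its group for 6 genes: Acat1 (141 CPM), Acadm (109 CPM), Acadvl (94.6 CPM), Hadhb (70.5 CPM), Etfa (72.5 CPM) and Slc25a20 (60.1 CPM). N replicate 3 was high for Pdk4 (28.0 CPM). BTPRZ-T replicate 4 was low for Hadhb (21.6 CPM) and high for Acot1 (8.99 CPM), and BTPRZ-T replicate 1 was high for Acot2 (5.87 CPM).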

How the results depend on the processing

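No result reversed its sign while called. With DESeq2, members called were 20 in BT-T against N and 2 in BTPRZ-T against BT-T, and genes called over the whole table were 2394, 3048 in BTPRZ-T against N and 1217 in BTPRZ-T against BT-T. With voom and sample quality weights, members called were 27, 27 and 12 for the 2 comparisons with N (BT-T first) and that between tumours, and genes called 6156, 8211 and 7734. With the 2 compared groups alone, members called were 5, 6 and 4, and genes called 1404, 647 and 1568, in the same order. With the transcript length trend removed, members called were 14 in BT-T against N and 19 in BTPRZ-T against N. Genes called in that fit were 1767 in BT-T against N, 2411 in BTPRZ-T against N and 218 in BTPRZ-T against BT-T. Without N replicate 2 and BTPRZ-T replicates 1 and 4, the libraries in which fewest genes were detected, members called were 24 in BT-T against N and 3 in BTPRZ-T against BT-T, genes called 4359, 5311 and 3723, and the medians against N -0.54 and -0.61. The cause of these differences was not tested. With the replicate block, members called were 4 in BT-T against N and 12 in BTPRZ-T against N. Genes called with it were 945 in BT-T against N, 1160 in BTPRZ-T against N and 1 in BTPRZ-T against BT-T. The labels do not say that a number pairs samples, and same-numbered libraries correlated from -0.42 to 0.40. Leaving out each library gave 2 to 14 members and 624 to 2030 genes in BT-T against N, 11 to 18 members and 1076 to 4855 genes in BTPRZ-T against N, and 0 to 5 members and 0 to 2714 genes in BTPRZ-T against BT-T. The medians then ran from -0.85 to -0.60, from -0.98 to -0.61 and from -0.15 to 0.087. RLE factors, no filter and the unstranded column moved no count of members or genes by over 1.5 times. Acaa1b and Acox2, at about 1 CPM or less in N, and Acot1, at 1.42 to 3.25 CPM in N, had standard errors above 0.7 in both comparisons with N, and the part of depth in these was not tested.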
